A study of Mus musculus with 8 samples.

Results

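Elastic fibres give connective tissue its recoil, and the 10 genes described here encode their main building blocks: elastin (Eln), the fibrillins Fbn1 and Fbn2, the fibulins Fbln1, Fbln2 and Fbln5, the microfibril-associated proteins Mfap2, Mfap4 and Mfap5, and the elastin microfibril interfacer Emilin1. They were chosen by symbol, with earlier results of these data known. All 10 were found among the 23238 gene symbols of the count files and had enough reads to be among the 13347 symbols tested. An elastic fibre has a core of cross-linked elastin laid down on a scaffold of microfibrils, which are bead-like strings of fibrillin with associated glycoproteins. Fibulins link elastin to the microfibrils and to the cells, lysyl oxidases cross-link the elastin, and microfibrils also hold latent TGF-beta and BMP growth factors in the matrix. The uterus builds and clears matrix with each cycle and pregnancy, and elastic fibres run through its stroma, muscle layer and vessel walls.

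RNA came from uterine stromal cells, the connective tissue cells under the uterine epithelium, of ovariectomized mice of strain C57BL/6-ICR. The 4 groups, with 2 libraries each, were Atg7d/d mice injected with estradiol (E2), Atg7f/f mice injected with E2, Atg7d/d mice injected with oil, and Atg7f/f mice injected with oil. Atg7 encodes the enzyme that starts conjugation of LC3 in autophagy. Both genotypes carry the floxed Atg7 allele, and in the Atg7d/d mice, called Atg7-deleted below, it was deleted by Cre under Amhr2, a gene active in uterine mesenchyme, so epithelium and blood cells keep the gene. No group is labelled as carrying Cre with Atg7 intact, so an effect of Cre cannot be told apart from that of the deletion, and the sources used here state neither age nor the dose and timing of E2. The libraries were made with a QuantSeq kit, which reads 1 tag near the 3′ end of each transcript, so levels in CPM (reads of a gene scaled to the library's total) need no length correction between genes. Means are given ± SD with n = 2 libraries per group, and log2 fold changes ± SE.

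The library totals lay between 5458390 and 6951080 counts. Atg7 had 4.14 and 3.56 CPM in Atg7-deleted E2, 2.79 and 3.53 CPM in control E2, 3.32 and 5.20 CPM in Atg7-deleted oil, and 3.47 and 5.67 CPM in control oil, so the groups overlapped or lay close together. Tags near the 3′ end do not check a deletion of internal exons. Amhr2, which drives Cre, had 0 to 3.15 CPM. Stromal markers were present in every library: Vim had 382 to 1271 CPM, Pdgfra 25.0 to 95.5 CPM. Markers of other cell types were present too. The summed level of 10 epithelium markers was 1330 and 1809 CPM in Atg7-deleted E2 and 1248 and 2843 CPM in control E2, against 11098 and 4675 CPM in Atg7-deleted oil and 17776 and 5925 CPM in control oil. Library 1 of both oil groups stood apart in this sum, and control oil library 1 was the highest. In every oil library the epithelium sum was above that of 9 fibroblast markers. The fibroblast sum was 2251 and 2883 CPM in Atg7-deleted oil and 1888 and 2300 CPM in control oil. In every E2 library the epithelium sum was the lower. The summed level of 9 smooth muscle markers was 9352 and 10795 CPM in Atg7-deleted E2 and 8422 and 9639 CPM in control E2, against 4518 and 5955 CPM in Atg7-deleted oil and 2418 and 4911 CPM in control oil. None of the markers in these lists was at 0 in all libraries.

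Together the 10 genes summed to 876 and 668 CPM in Atg7-deleted E2 and 587 and 482 CPM in control E2, against 202 and 308 CPM in Atg7-deleted oil and 170 and 257 CPM in control oil. In both oil groups library 1, with the higher epithelium sum, had the lower sum of these genes. Single genes were also lower in library 1 of both oil groups, though Mfap4 only slightly. The exceptions were Fbln1 in control oil and Mfap5 in both. The part of the epithelium sum in this was not tested. Fbln2, which encodes an adaptor of microfibrils and basement membranes, had the highest mean of the 10 in every group, and its libraries lay above those of the next gene in both E2 groups but overlapped those of Eln in both oil groups. Below it the order differed between groups. In Atg7-deleted E2, Fbn1 (83.5 CPM), Mfap5 (82.5 CPM) and Fbn2 (78.0 CPM) followed Fbln2, and Fbln1 (4.89 CPM) was last. In control E2, Eln (65.8 CPM) and Fbn2 (63.0 CPM) followed Fbln2, and Fbln1 (7.21 CPM) was again last. In Atg7-deleted oil, Eln (38.6 CPM) and Mfap5 (32.7 CPM) came next, and Mfap2 (10.6 CPM) was last. In control oil, Eln (41.4 CPM) and Fbn1 (23.7 CPM) followed Fbln2, and Mfap4 (7.35 CPM) was last. Of the 9 pairs of neighbours in the order, the libraries overlapped for 6 in Atg7-deleted E2, 4 in control E2, 6 in Atg7-deleted oil and 7 in control oil, and those ranks were not separated by more than the spread.

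**Figure D1:**
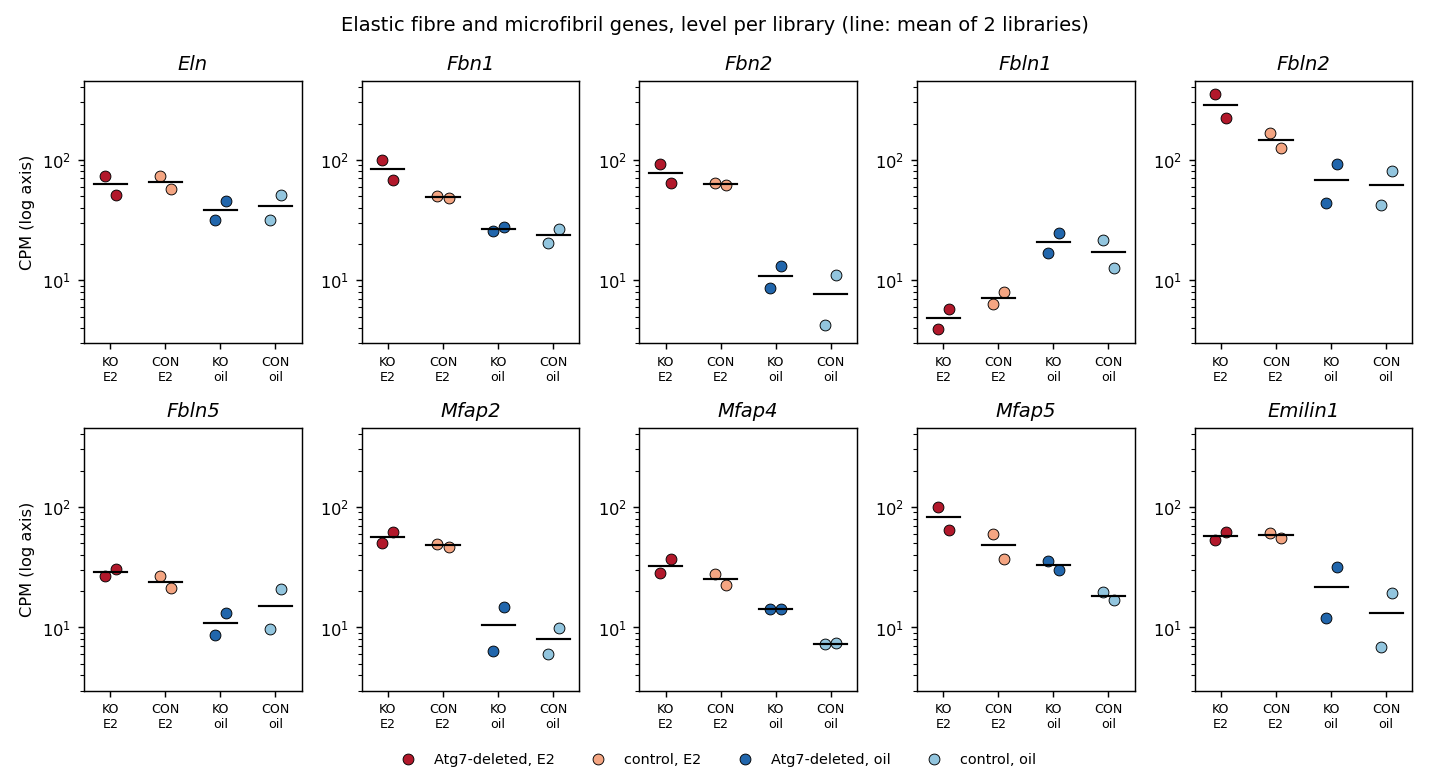
Level of each gene in each of the 8 libraries, in CPM on a log axis, by genotype (KO: Atg7-deleted, CON: control) and injection; the line is the mean of the 2 libraries. For 9 of the 10 genes both E2 groups lie above the oil group of the same genotype, and Fbln1 lies below it.

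Most of these genes had a higher level after E2 than after oil in the libraries of both genotypes. The marker sums of several cell types also differed between these libraries, and their part in this was not tested. In Atg7-deleted stroma 7 of the 10 rose, 1 fell and 2 did not pass (edgeR quasi-likelihood test, adjusted p below 0.05 over all genes), where 13.1% of all tested genes rose and 11.2% fell. In control stroma 7 rose, 1 fell and 2 did not pass, where 15.8% of all tested genes rose and 14.0% fell. Fbn1, Fbn2, Fbln2, Mfap2, Mfap4 and Mfap5 rose in both genotypes, and Fbln1 fell in both. Since the 10 were chosen with earlier results of these data known, the values over all genes are no test of the set. The median log2 fold change of the 10 was 1.39 in Atg7-deleted stroma, against 0.02 over all tested genes, and 1.32 in control stroma, against 0.01. For all 10 genes the E2 and oil libraries of a genotype did not overlap, with 9 higher and 1 lower; of all tested genes 35.5% lay higher without overlap and 32.7% lower in Atg7-deleted stroma, and 33.8% higher and 31.7% lower in control stroma.

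In Atg7-deleted stroma 4 of the 10 passed in either direction without Atg7-deleted E2 library 1, where 5.36% of all genes tested in that fit did, and 5 without Atg7-deleted oil library 1, where 9.38% did. With all libraries 24.3% of all genes passed in that genotype. In control stroma 3 of the 10 passed without control E2 library 1, where 11% of all genes did, and 6 without control oil library 1, where 24.3% did, against 29.8% of all genes with all libraries. Fbn2 and Mfap2 passed in both genotypes in each of the fits without 1 library. In the same comparisons 4 of 10 epithelium markers fell and none rose in Atg7-deleted stroma, and 6 fell and none rose in control stroma. Of 9 smooth muscle markers, 5 rose and 1 fell in Atg7-deleted stroma, and 6 rose and none fell in control stroma. Of 9 fibroblast markers, 7 rose and none fell in Atg7-deleted stroma, and 6 rose and 1 fell in control stroma. The summed fibroblast level was 8558 and 7898 CPM in Atg7-deleted E2 and 8270 and 5814 CPM in control E2, against 2251 and 2883 CPM in Atg7-deleted oil and 1888 and 2300 CPM in control oil. Most of that rise lay in the collagen genes Col1a1, Col1a2 and Col3a1, with log2 fold changes of 4.14 to 5.25 over both genotypes. The other fibroblast markers ran from -0.38 (Dcn) to 2.04 (Lum) in Atg7-deleted stroma, and from -0.65 (Dcn) to 2.23 (Lum) in control stroma. The part of all 3 lists in the rise of the elastic fibre genes was not tested, and in RNA from many cells a change in the number of cells of a type cannot be told apart from a change in RNA per cell.

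**Figure D2:**
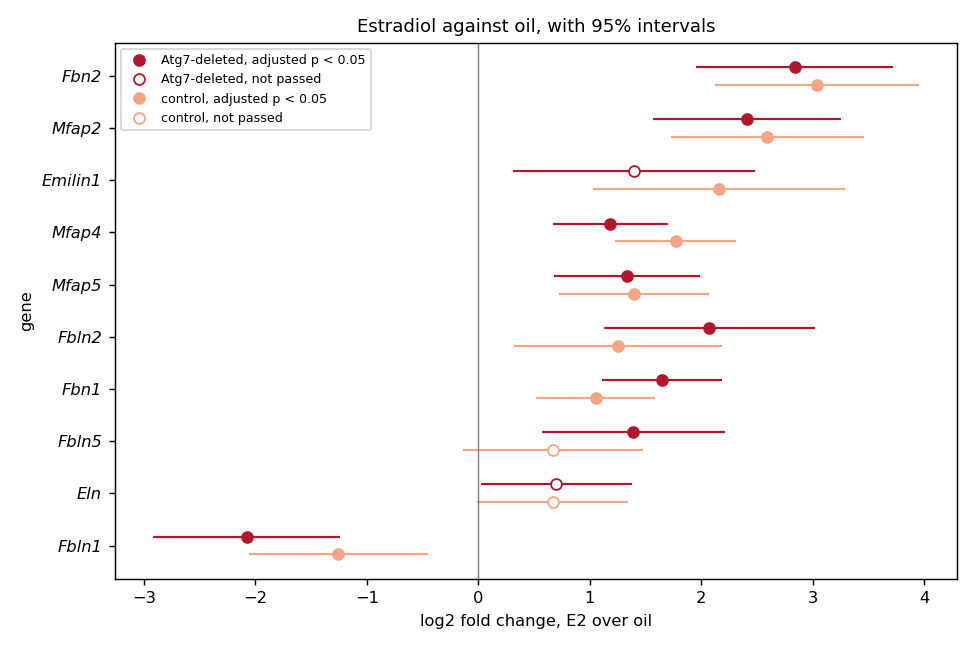
Estradiol effect on each gene as log2 fold change of E2 over oil, with 95% confidence intervals, in Atg7-deleted (upper of each pair) and control stroma; filled points passed the test at adjusted p below 0.05. Fbn2 and Mfap2 have the largest rises of the 10 in both genotypes, and Fbln1 is the single gene below 0.

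Elastin, the elastic core protein itself, did not pass the test in either genotype. Eln (ENSMUSG00000029675, chromosome 5, 134702593 to 134747323, minus strand; all coordinates on mm10 from GENCODE M21) had 73.9 and 51.4 CPM in Atg7-deleted E2, against 31.5 and 45.7 CPM in Atg7-deleted oil. In control stroma it had 74.0 and 57.5 CPM after E2, against 31.9 and 51.0 CPM after oil. The E2 libraries were above the oil libraries in both genotypes, but the lowest E2 and the highest oil library lay close together. The log2 fold change was 0.70 ± 0.30 in Atg7-deleted stroma (edgeR, adjusted p = 0.119; 95% interval 0.02 to 1.38) and 0.67 ± 0.30 in control stroma (adjusted p = 0.121; -0.01 to 1.35). Without control oil library 2 the control value passed, at 1.01 (adjusted p = 0.0367).

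The fibrillins form the microfibril string, Fbn1 being the main fibrillin of adult tissues and Fbn2 better known from development. Fbn2 (ENSMUSG00000024598, chromosome 18, 58008623 to 58210487, minus strand) had 91.9 and 64.1 CPM in Atg7-deleted E2, against 8.69 and 13.1 CPM in Atg7-deleted oil. Control stroma showed 64.0 and 62.1 CPM after E2, against 4.26 and 11.2 CPM after oil. Every E2 library had over 4 times the level of every oil library. Fbn2 rose 7.15-fold in Atg7-deleted stroma, by 2.84 ± 0.39 on the log2 scale (edgeR, adjusted p = 0.00243), and 8.24-fold in control stroma, by 3.04 ± 0.40 (adjusted p = 0.00158), with the control value at 3.85 without control oil library 2. Fbn1 (ENSMUSG00000027204, chromosome 2, 125300594 to 125507993, minus strand) rose less. It had 99.3 and 67.6 CPM in Atg7-deleted E2, against 25.4 and 27.7 CPM in Atg7-deleted oil, and 50.3 and 48.1 CPM in control E2, against 20.5 and 26.9 CPM in control oil. The libraries of each group were close together, save those of Atg7-deleted E2. Fbn1 rose by 1.65 ± 0.24 in Atg7-deleted stroma (edgeR, adjusted p = 0.00275) and by 1.05 ± 0.24 in control stroma (adjusted p = 0.0115), and the control call ended without control E2 library 1 (adjusted p = 0.0669).

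The ratio of Fbn2 to Fbn1, compared here after their values were seen, was 0.926 and 0.947 in Atg7-deleted E2, 1.27 and 1.29 in control E2, 0.342 and 0.472 in Atg7-deleted oil, and 0.208 and 0.414 in control oil. Fbn2 tags were thus fewer than Fbn1 tags in all oil libraries, near parity in Atg7-deleted E2 and in excess in control E2. Fbn2 made up 9.59% to 12.9% of the summed level of the 10 genes in the E2 libraries and 2.51% to 4.34% in the oil libraries. Eln made up 7.70% to 12.6% after E2 and 14.9% to 19.8% after oil.

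**Figure D3:**
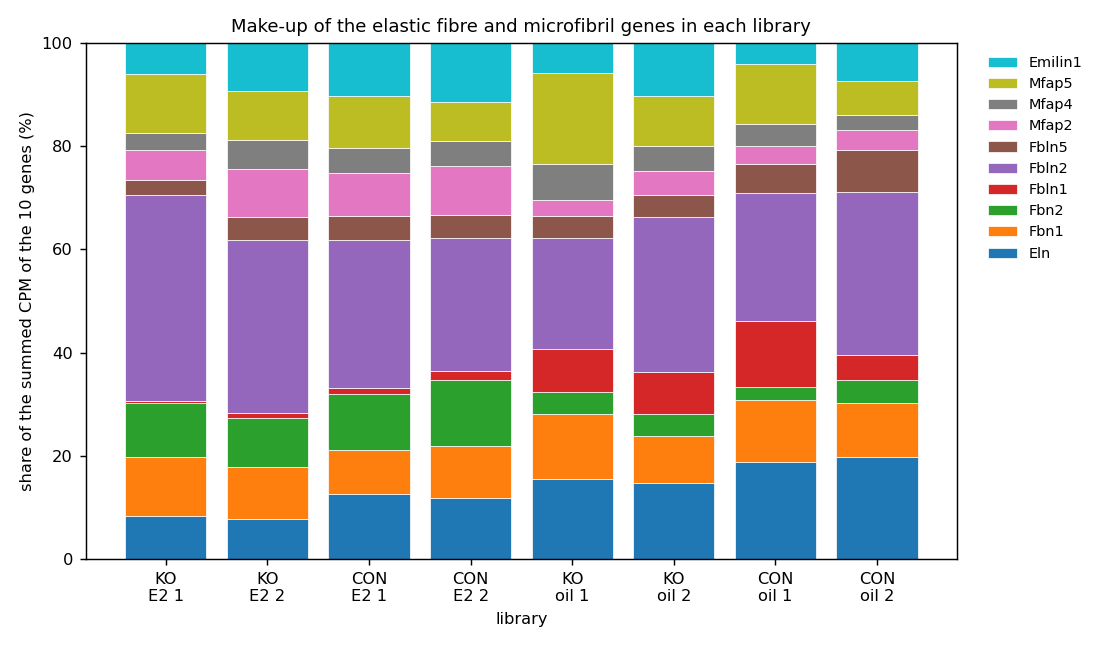
Share of each gene, in percent, in the summed CPM of the 10 genes in each library (KO: Atg7-deleted, CON: control). The share of Fbn2 is larger and those of Eln and Fbln1 smaller in the 4 E2 libraries than in the 4 oil libraries.

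Of the proteins that sit on the microfibril, Mfap2, also called MAGP-1, moved most. It binds fibrillin and growth factors of the TGF-beta family. Mfap2 (ENSMUSG00000060572, chromosome 4, 141010418 to 141015984, plus strand) had 50.4 and 62.0 CPM in Atg7-deleted E2, against 6.32 and 14.8 CPM in Atg7-deleted oil. Levels in control stroma were 49.6 and 46.3 CPM after E2, against 5.99 and 9.91 CPM after oil. The E2 libraries were alike, and the oil libraries of the Atg7-deleted group differed 2.34-fold. Mfap2 rose 5.31-fold in Atg7-deleted stroma, by 2.41 ± 0.37 on the log2 scale (edgeR, adjusted p = 0.00353; 3.15 without Atg7-deleted oil library 2), and 6.04-fold in control stroma, by 2.60 ± 0.38 (adjusted p = 0.00226). Its relative Mfap5 (MAGP-2; ENSMUSG00000030116, chromosome 6, 122505845 to 122529290, plus strand), which shares the fibrillin-binding domain, had 101 and 64.4 CPM in Atg7-deleted E2, against 35.4 and 30.1 CPM in Atg7-deleted oil. Control libraries had 59.2 and 36.9 CPM after E2, against 19.7 and 16.8 CPM after oil. Mfap5 rose by 1.33 ± 0.29 in Atg7-deleted stroma (edgeR, adjusted p = 0.0124) and by 1.39 ± 0.30 in control stroma (adjusted p = 0.00948). The deleted call ended without Atg7-deleted E2 library 1 (adjusted p = 0.111), Atg7-deleted oil library 1 (0.0519) or Atg7-deleted oil library 2 (0.0719), and the control call without control E2 library 1 (0.0759).

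Mfap4 encodes a fibrinogen-related protein that binds elastin and fibrillin. Mfap4 (ENSMUSG00000042436, chromosome 11, 61485431 to 61488900, plus strand) had 28.2 and 36.7 CPM in Atg7-deleted E2, against 14.2 and 14.3 CPM in Atg7-deleted oil. In control stroma it had 27.7 and 22.6 CPM after E2, against 7.26 and 7.44 CPM after oil. The replicates were close in every group, and closest in oil. Mfap4 rose by 1.19 ± 0.23 in Atg7-deleted stroma (edgeR, adjusted p = 0.00761; 0.0711 without Atg7-deleted E2 library 2) and by 1.77 ± 0.24 in control stroma (adjusted p = 0.00168). Its last 89 bases overlap the 3′ end of Mapk7 on the other strand, and no source used here says whether reads were counted by strand. Mapk7 stood at 11.3 to 17.2 CPM in all libraries, with a log2 fold change with E2 of -0.07 ± 0.27 in Atg7-deleted and 0.12 ± 0.27 in control stroma.

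Emilin1 encodes a glycoprotein at the interface of elastin and microfibrils that in mice restrains the activation of TGF-beta. Emilin1 (ENSMUSG00000029163, chromosome 5, 30913402 to 30921277, plus strand) had 53.1 and 62.0 CPM in Atg7-deleted E2, against 12.0 and 31.7 CPM in Atg7-deleted oil. Control stroma showed 61.0 and 55.3 CPM after E2, against 6.94 and 19.3 CPM after oil. The E2 libraries lay together, while the oil libraries differed 2.64-fold in the Atg7-deleted and 2.78-fold in the control group, with library 1 the lower in both. In Atg7-deleted stroma Emilin1 stood at 1.40 ± 0.48 (edgeR, adjusted p = 0.0634; 95% interval 0.31 to 2.48), and it passed there without Atg7-deleted oil library 2, at 2.26 (adjusted p = 0.0304), and with DESeq2 (adjusted p = 0.0151), no filter (0.00536), the replicate block (0.0269) or the 4 Atg7-deleted libraries alone (0.0129). The same held without either of the control oil libraries (0.0122 each). In control stroma Emilin1 rose by 2.16 ± 0.50 (edgeR, adjusted p = 0.0131; 3.03 without control oil library 2, and adjusted p = 0.0657 without control E2 library 1). The difference between the 2 estradiol effects was -0.76 ± 0.68 (edgeR, adjusted p = 1.0), so a weaker effect in either genotype was not shown. This difference ran from -1.63 without control oil library 2 to 0.10 without Atg7-deleted oil library 2, so its sign rests on 1 library.

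Of the 3 fibulins, Fbln2 rose in both genotypes, Fbln5 passed in Atg7-deleted stroma alone, and Fbln1 fell in both. Fbln2 (ENSMUSG00000064080, chromosome 6, 91212455 to 91272540, plus strand) had 348 and 223 CPM in Atg7-deleted E2, against 43.5 and 92.2 CPM in Atg7-deleted oil. Levels in control stroma were 168 and 125 CPM after E2, against 42.1 and 80.9 CPM after oil. It rose by 2.07 ± 0.42 in Atg7-deleted stroma (edgeR, adjusted p = 0.00945; 2.72 without Atg7-deleted oil library 2) and by 1.25 ± 0.41 in control stroma (adjusted p = 0.0478). The control call was close to the threshold and ended in 5 of the 8 fits without 1 library, at adjusted p from 0.066 to 0.212, and with library totals or the replicate block. The deleted call ended without Atg7-deleted E2 library 1 (adjusted p = 0.0801) or Atg7-deleted oil library 1 (0.0542).

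Fbln5, which brings elastin to the microfibrils and to cell-surface integrins and is required for elastic fibres in mice, had fewer tags. Fbln5 (ENSMUSG00000021186, chromosome 12, 101746565 to 101819055, minus strand) had 26.6 and 30.6 CPM in Atg7-deleted E2, against 8.69 and 13.1 CPM in Atg7-deleted oil, where its 55 and 83 reads happened to equal those of Fbn2. Control libraries had 27.0 and 21.1 CPM after E2, against 9.62 and 20.7 CPM after oil. The upper control oil library reached nearly the lower control E2 library. Fbln5 rose by 1.39 ± 0.36 in Atg7-deleted stroma (edgeR, adjusted p = 0.0246), a call lost without Atg7-deleted E2 library 1 (0.0986), Atg7-deleted E2 library 2 (0.123) or Atg7-deleted oil library 1 (0.135). In control stroma it stood at 0.67 ± 0.36 (edgeR, adjusted p = 0.185; 95% interval -0.14 to 1.48), and passed without control oil library 2, at 1.29 (adjusted p = 0.0172). The difference between the estradiol effects was 0.72 ± 0.51 (edgeR, adjusted p = 1.0), and 0.11 without control oil library 2.

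Fbln1, a fibulin of elastic fibres, basement membranes and vessel walls, was the member that fell. Fbln1 (ENSMUSG00000006369, chromosome 15, 85205949 to 85286535, plus strand) had 3.96 and 5.82 CPM in Atg7-deleted E2, against 16.8 and 24.9 CPM in Atg7-deleted oil. In control stroma it had 6.43 and 7.99 CPM after E2, against 21.6 and 12.7 CPM after oil. Its reads were few after E2, 22 and 36 in Atg7-deleted and 46 and 52 in control libraries. Fbln1 fell by 2.08 ± 0.37 on the log2 scale in Atg7-deleted stroma (edgeR, adjusted p = 0.00582; 0.0666 without Atg7-deleted E2 library 1), a level 4.23-fold lower. In control stroma it fell by 1.26 ± 0.36 (edgeR, adjusted p = 0.0281), with the call lost without control E2 library 1 (0.158), control E2 library 2 (0.0836) or control oil library 1 (0.137, at -0.80), and in the fit of the 4 control libraries alone (0.0599). The ratio of Fbln2 to Fbln1 was 88.0 and 38.3 in Atg7-deleted E2 and 26.2 and 15.6 in control E2, against 2.59 and 3.70 in Atg7-deleted oil and 1.95 and 6.35 in control oil.

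Promoter sequence was at hand for 6 of the 10 genes, Fbn1, Fbln1, Fbln2, Fbln5, Mfap2 and Emilin1, in 9 entries from RefSeq (GRCm38.p6), each running from 250 bases before to 50 bases after a transcript start. The strong riser Mfap2 with both its starts, Emilin1 and the falling Fbln1 are shown 5′ to 3′ on the gene's own strand, with each GGTCA, the half-site bound by estrogen receptors, or its reverse complement TGACC in capitals.
Mfap2, upstream start (chr4:141010174-141010473, plus strand): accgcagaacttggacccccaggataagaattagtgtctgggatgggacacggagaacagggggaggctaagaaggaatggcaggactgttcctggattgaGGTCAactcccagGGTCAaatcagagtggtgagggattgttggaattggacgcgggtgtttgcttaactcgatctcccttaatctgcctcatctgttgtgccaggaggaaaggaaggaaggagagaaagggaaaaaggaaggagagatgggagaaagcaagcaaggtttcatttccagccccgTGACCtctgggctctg
Mfap2, downstream start (chr4:141010431-141010730, plus strand): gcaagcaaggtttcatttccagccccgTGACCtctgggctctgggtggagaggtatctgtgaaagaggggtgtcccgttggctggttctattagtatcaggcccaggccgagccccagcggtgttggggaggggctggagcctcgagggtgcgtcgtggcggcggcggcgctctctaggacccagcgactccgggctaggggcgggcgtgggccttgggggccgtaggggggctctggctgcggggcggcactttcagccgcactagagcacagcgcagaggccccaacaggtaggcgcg
Emilin1 (chr5:30913536-30913835, plus strand): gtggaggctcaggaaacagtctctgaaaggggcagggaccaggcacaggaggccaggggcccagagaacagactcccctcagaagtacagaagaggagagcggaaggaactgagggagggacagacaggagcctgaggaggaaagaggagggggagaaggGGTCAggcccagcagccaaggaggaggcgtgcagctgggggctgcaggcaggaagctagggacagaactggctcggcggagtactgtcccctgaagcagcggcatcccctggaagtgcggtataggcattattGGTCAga
Fbln1 (chr15:85205699-85205998, plus strand): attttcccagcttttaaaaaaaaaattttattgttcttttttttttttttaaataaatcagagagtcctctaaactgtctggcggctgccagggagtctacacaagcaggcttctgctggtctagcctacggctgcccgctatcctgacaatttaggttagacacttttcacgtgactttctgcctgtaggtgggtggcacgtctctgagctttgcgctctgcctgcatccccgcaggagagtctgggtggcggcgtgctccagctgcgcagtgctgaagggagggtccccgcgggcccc
Counting the first transcribed base as 1, half-sites began at -149, -136 and 35 of the upstream Mfap2 start. The one at -223 of the downstream start is the same copy as that at 35, since the windows overlap. Emilin1 had half-sites at -90 and 44, and the Fbln1 window shown had none. Of the windows not shown, those of Fbn1 and Fbln2 also had none, though both genes rose with E2 in both genotypes. A Fbln5 window had half-sites at -116 and 1. Over the 9 entries 4 held a half-site on either strand, while 40.5% of the 32851 promoter entries of all genes did. The full estrogen response element, in which GGTCA is followed after any 3 bases by TGACC and which thus contains 2 half-sites, was in none of the 9 and in 0.0700% of all entries. The GC box GGGCGG was in 5 of 9 against 35.7% of all, the SMAD box CAGACA in 5 of 9 against 21.0%, with 1 copy counted in both of the overlapping Fbln1 entries, and the AP-1 site TGANTCA, the TATAAA box and the CArG box of serum response factor were in none of the 9, against 7.81%, 13.6% and 1.63%. These are matches of letters in short windows, and binding was not measured.

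Atg7 deletion gave no call among the 10 genes, in E2 or in oil, for the average of both or for the interaction, where 0% of the 13347 tested genes were called in each (edgeR, adjusted p below 0.05). At an unadjusted p below 0.05 there were 403 genes in E2, 339 in oil, 543 for the average and 210 for the interaction, of which 3, 2, 3 and 0 were among the 10. The counts over all genes lie below a share of 0.05 of the 13347 tested genes, which no effect at all would give. The p-values thus run high in these comparisons, and the lack of calls does not show that deletion has no effect. DESeq2 called none of the 10 either, and among all genes 3 for the average and 0 for the others. After E2, Fbn1, Fbn2, Fbln2, Mfap2, Mfap4 and Mfap5 were higher in the Atg7-deleted than in the control libraries with no overlap and Fbln1 was lower, as were 16.0% and 18.2% of all tested genes. In oil, Mfap4 and Mfap5 were higher with no overlap and no gene was lower, against 12.9% and 11.6% of all tested genes. The median log2 fold change of the 10 was 0.28 in E2 and 0.35 in oil, against -0.01 over all tested genes in both.

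Mfap5 had the largest average deletion value of the 10. The Atg7-deleted libraries had 101 and 64.4 CPM in E2, against 59.2 and 36.9 CPM in control, and 35.4 and 30.1 CPM in oil, against 19.7 and 16.8 CPM in control. All 4 Atg7-deleted libraries lay above the control libraries of the same treatment, by the narrowest margin in E2. The log2 fold change was 0.78 ± 0.28 in E2 (95% interval 0.13 to 1.42), 0.84 ± 0.30 in oil (0.17 to 1.51) and 0.81 ± 0.21 for the average (0.34 to 1.27), with an unadjusted p of 0.00343 and an adjusted p of 0.999 for the average (edgeR). Mfap4 stood at 0.37 ± 0.22 in E2 and 0.96 ± 0.24 in oil (edgeR, unadjusted p = 0.00341, adjusted p = 1.0), where both Atg7-deleted libraries had over 14 CPM and both control libraries under 8 CPM. Fbn1 stood at 0.76 ± 0.23 in E2 (95% interval 0.24 to 1.28) and 0.17 ± 0.24 in oil, and Fbln2 at 0.96 ± 0.40 in E2 (0.05 to 1.88) and 0.14 ± 0.41 in oil. Eln stood at -0.07 ± 0.30 in E2 (-0.74 to 0.60) and -0.10 ± 0.30 in oil (-0.78 to 0.58), and Emilin1 at -0.02 ± 0.46 in E2 (-1.06 to 1.03), intervals that leave room for changes either way. For the interaction Fbn1 stood at 0.59 ± 0.33 (95% interval -0.15 to 1.34), Mfap4 at -0.59 ± 0.33 (-1.33 to 0.15) and Fbln1 at -0.82 ± 0.51 (-1.98 to 0.33), so a difference between the estradiol effects of the genotypes was not detected for these genes at this spread. Marker lists of several cell types also lay off 0 for deletion, with no marker called. The fibroblast markers had a median of 0.27 in E2, with 7 of 9 above 0, and of 0.36 in oil, with 9 of 9. The macrophage markers had a median of 0.56 in E2 and 0.09 in oil, with 6 of 7 above 0 in each. The smooth muscle markers had a median of 0.07 in E2, with 5 of 9 above 0, and of 0.49 in oil, with 9 of 9. The epithelium markers had a median of -0.31 in E2 and -0.59 in oil, with 1 of 10 above 0 in each, the endothelium markers of -0.30 and -0.10, and the pericyte markers of -0.02 and 0.15. The part of these lists in the values of the elastic fibre genes was not tested.

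**Figure D4:**
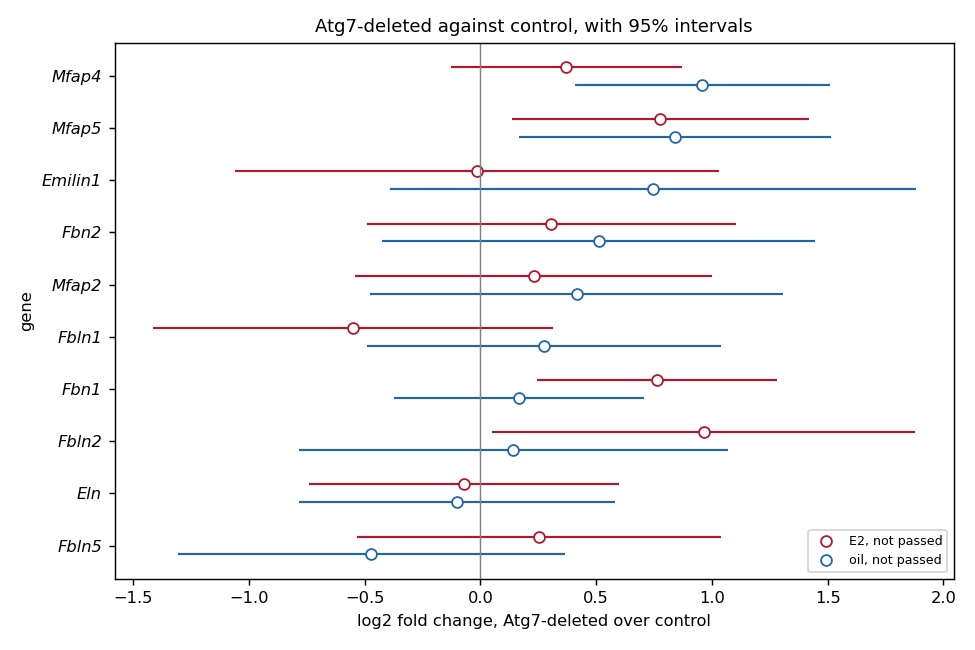
Effect of Atg7 deletion on each gene as log2 fold change of Atg7-deleted over control, with 95% confidence intervals, in E2 (upper of each pair) and oil. No point passed the test; the intervals of Mfap5 lie above 0 in both treatments, that of Mfap4 in oil, and those of Fbn1 and Fbln2 in E2.

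The genes that make, bind and cut the fibres were looked at in 5 lists of 63 genes, of which 55 were tested; none of the 55 was called for deletion or the interaction. The counts for E2 stand against the 13.1% of all genes that rose and 11.2% that fell in Atg7-deleted stroma, and the 15.8% and 14.0% in control stroma. Among 11 cross-linking and assembly genes, 5 rose and 1 fell with E2 in Atg7-deleted stroma (median 0.75) and 6 rose and 1 fell in control stroma (median 0.70). Loxl1, a lysyl oxidase that cross-links elastin, had 41.1 ± 0.679 CPM in Atg7-deleted E2 and 13.1 ± 1.09 CPM in Atg7-deleted oil, and 35.9 ± 9.69 CPM in control E2 and 6.79 ± 0.907 CPM in control oil. It rose by 1.65 ± 0.24 in Atg7-deleted and 2.40 ± 0.26 in control stroma (edgeR, adjusted p = 0.00299 and 7.96e-04). Loxl2, its relative, rose by 1.61 ± 0.26 and 1.77 ± 0.27, and Fkbp10, a chaperone of collagen and elastin in the secretory pathway, by 2.28 ± 0.21 and 2.65 ± 0.21, each in Atg7-deleted and then control stroma. Efemp2, the fibulin-4 gene needed for elastin cross-linking in mice, rose by 1.69 ± 0.31 and 2.49 ± 0.33. The gene that fell in both was Efemp1, the fibulin-3 gene, named here for being the single fall, at -1.20 ± 0.28 in Atg7-deleted and -1.35 ± 0.28 in control stroma.

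Of 5 tested latent TGF-beta binding protein and TGF-beta genes, none passed with E2 in either genotype. Ltbp4, whose product also takes part in elastic fibre assembly, had 261 ± 35.9 CPM in Atg7-deleted E2 and 251 ± 13.9 CPM in Atg7-deleted oil, and 236 ± 7.16 CPM in control E2 and 197 ± 34.0 CPM in control oil. Tgfb2 stood at 0.53 ± 0.26 in Atg7-deleted and 0.57 ± 0.26 in control stroma. Of 13 other microfibril-associated genes, 3 rose and 4 fell in Atg7-deleted stroma (median -0.11) and 3 rose and 5 fell in control stroma (median -0.05). Vcan, a proteoglycan that binds fibrillin, had 109 ± 30.9 CPM in Atg7-deleted E2 and 16.3 ± 2.53 CPM in Atg7-deleted oil, a rise of 2.74 ± 0.27, and 78.0 ± 16.5 CPM in control E2 and 11.1 ± 1.26 CPM in control oil, a rise of 2.81 ± 0.28. Bgn, a small proteoglycan, rose by 1.14 ± 0.19 and 1.21 ± 0.19, and Mmrn1, an endothelial and platelet relative of Emilin1, fell, at -1.17 ± 0.31 and -1.30 ± 0.31, in Atg7-deleted and control stroma. Adamts17, a secreted protease linked to fibrillin microfibrils, had 1 and 0 reads in Atg7-deleted E2 and none in control E2, against 30 and 4 reads in Atg7-deleted oil and 15 and 15 in control oil. In control stroma it was at least 11.4-fold lower, with 3 reads over the group as the floor, and the list's median there is the same with this bound.

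Among 12 tested elastin-degrading enzymes and inhibitors, 3 rose and 2 fell in Atg7-deleted stroma (median 0.42), and 2 rose and 1 fell in control stroma (median 0.23), where the counts are near those shares of all genes. Ctsk, a cathepsin that cuts elastin and collagen, had 61.2 ± 13.8 CPM in Atg7-deleted E2 and 10.9 ± 3.55 CPM in Atg7-deleted oil, a rise of 2.49 ± 0.35, and 40.6 ± 12.2 CPM in control E2 and 6.35 ± 2.29 CPM in control oil, a rise of 2.68 ± 0.36. In Atg7-deleted and control stroma Timp1, an inhibitor of metalloproteinases, rose by 1.70 ± 0.37 and 1.51 ± 0.36, while the matrix-bound inhibitor Timp3 fell, at -1.74 ± 0.24 and -2.01 ± 0.24. Serpine2, an inhibitor of serine proteases, fell by 0.52 ± 0.15 in Atg7-deleted stroma (edgeR, adjusted p = 0.0382) and stood at -0.41 ± 0.15 in control stroma (adjusted p = 0.0715). Of 14 receptor genes, 1 rose and 3 fell in Atg7-deleted stroma (median -0.31), and 2 rose and 5 fell in control stroma (median -0.42). The counts that rose are near those shares of all genes, and the counts that fell are above them. In Atg7-deleted and control stroma the integrin chain Itgb3 rose by 1.51 ± 0.29 and 1.91 ± 0.30, whereas Itga5 fell, at -1.77 ± 0.25 and -1.24 ± 0.25, as did the epithelial chain Itgb6, at -1.76 ± 0.50 and -1.97 ± 0.49. Lgals3, the galectin that binds elastin fragments, stood at -0.45 ± 0.22 in Atg7-deleted stroma (edgeR, adjusted p = 0.167) and fell by 1.16 ± 0.22 in control stroma (adjusted p = 0.0064). Some receptor genes were highest in the libraries with the highest epithelium sums, as is given here for 2 genes chosen after their values were seen. Itgav had 63.0 and 60.2 CPM in Atg7-deleted E2 and 54.9 and 78.5 CPM in control E2, against 151 and 90.0 CPM in Atg7-deleted oil and 257 and 87.1 CPM in control oil. Sdc4 had 195 and 151 CPM in Atg7-deleted E2 and 169 and 180 CPM in control E2, against 503 and 264 CPM in Atg7-deleted oil and 719 and 296 CPM in control oil. Library 1 was the higher in both oil groups for these genes, for Itgb6 and Lgals3, and for the epithelium sum, whose part in the falls was not tested.

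**Figure D5:**
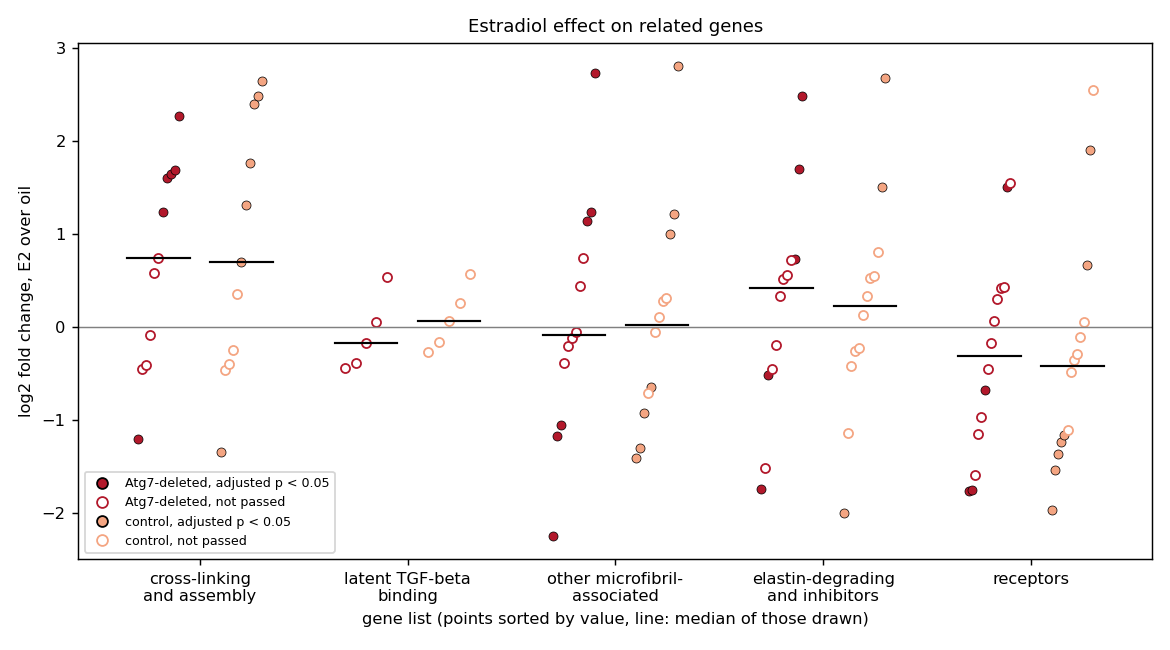
Estradiol effect on the tested genes of the 5 related lists as log2 fold change of E2 over oil, in Atg7-deleted (left of each pair) and control stroma; filled points passed at adjusted p below 0.05 and the line is the median of the genes drawn. Adamts17, with no read in control E2, is not drawn. Cross-linking and assembly genes lie mostly above 0, and receptor genes mostly below.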

How the data were processed

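The authors deposited 1 file of raw counts per library, with whole-number reads per gene symbol and no normalization. Bowtie2, edgeR and mm10 are named in the submitters' processing notes, with no versions or roles, and no read counter is named. Of 23282 lines per file, 35 symbols stood on more than 1, of which that with most reads was used. Genes were kept with filterByExpr (minimum count 10, minimum total 15), which left 13347 symbols with 99.9% of counts. CPM are counts scaled by library totals and TMM factors (0.918 to 1.03). Quasi-likelihood tests used edgeR 4.0.16 in R 4.3.3 with 1 mean per group over all 8 libraries. The fit had 4 residual and 5.08 prior degrees of freedom, and the Benjamini-Hochberg adjustment ran over every tested gene, at 0.05. The fit was tested on simulated counts without cell mixtures or shared library effects, as a check of the code only. DESeq2 1.42.0, other scalings, no filter, summed lines, a replicate block, fits of the 4 libraries compared and fits without each library were alternatives. The labels do not tie libraries to single animals. The p-values therefore measure the spread between these samples, which may be technical. The members and lists were chosen with earlier results of these data known. Named from each list are up to 4 genes with the smallest adjusted p for E2 in control stroma.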

Additional observations from a re-analysis of the deposited data

How the results depend on the processing

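No called value of the 10 genes changed sign under any alternative. Over 880 values of single genes under an alternative, 24 lost a call, 9 gained one and 39 uncalled values changed sign, 37 of them in fits without 1 library. Without 1 library at a time, 4 to 9 of the 10 genes passed for E2 in Atg7-deleted stroma (8 with all libraries) and 3 to 10 in control stroma (8 with all). In each genotype, the lowest and highest counts of the 10 came from the fits with the lowest and highest shares of all genes called. The range is thus no trait of the 10 alone. With 1 library left in a group, that library is assumed to vary like the others. Over all genes, the E2 calls in Atg7-deleted stroma numbered 3242, against 740 and 1065 without Atg7-deleted E2 library 1 or 2 and 1289 and 1634 without Atg7-deleted oil library 1 or 2. In control stroma there were 3978, against 1505 and 1928 without control E2 library 1 or 2, and 2305 in the fit of the 4 control libraries alone. Other fits with fewer libraries gave more calls. In the fit of the 4 Atg7-deleted libraries alone the number was 4257, and without either control oil library the number in Atg7-deleted stroma also rose. The cause of these differences was not tested. For the average deletion effect 0 genes were called, against 3 with DESeq2, 4 with no filter and 1 without control oil library 2, none of them among the 10. The labels give each group a library 1 and 2 but do not say what the numbers share. The across-gene correlation of the difference between library 1 and 2 ran from -0.231 (control E2 with control oil) to 0.494 (Atg7-deleted oil with control oil). With the replicate block, 9 of the 10 genes passed for E2 in Atg7-deleted stroma, where 3423 of all genes did (25.6%), and 7 in control stroma, where 4094 did (30.7%), and none for deletion or the interaction. Depth limits Fbln1 most, with 22 reads in its lowest library.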

Other observations

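The profile over the 8 libraries, as log2 CPM centred on its mean, was compared between each of the 10 genes and all other tested genes by the root mean square difference on the log2 scale. Among the 10, Eln and Fbln5 were most alike (0.32), followed by Mfap4 and Mfap5 (0.33), and Fbn2 and Fbln1 were farthest apart (2.38). Nearest to Fbn2 over all tested genes were Fkbp14 (0.19), Col6a1 (0.24) and Trabd2b (0.26). Eln was nearest to Eif2a (0.10), Zbed3 (0.10) and Lgmn (0.11), and Fbn1 to Naalad2 (0.16), Rab5c (0.17) and Ptprs (0.17). Mfap4 was nearest to Zmat3 (0.16), Dtd2 (0.17) and Mrgprf (0.19). Fbln2 was nearest to Mest (0.21), Prkcb (0.24) and Drp2 (0.26), and Fbln5 to Klhl6 (0.14), Nid2 (0.15) and Glipr2 (0.18). Nearest to Mfap2 were Gpx7 (0.19), Plvap (0.20) and Pcolce (0.20). Emilin1 was nearest to Col5a2 (0.19), Gdf5 (0.20) and Ajap1 (0.23). Mfap5 was nearest to Frzb (0.16), Osr1 (0.19) and Fcrls (0.22). Fbln1 was nearest to Hmcn1 (0.19), which encodes hemicentin-1, itself of the fibulin family, then to Gm11166 (0.21) and Ap3m2 (0.23). These values describe 8 libraries that share 2 treatments, and many genes that move with E2 would come close to one another.

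Markers of further cell types were read for the same libraries. With E2, 2 of 7 endothelium markers fell and none rose in both genotypes. Of 7 pericyte markers 1 rose in each. Of 7 macrophage markers, 1 rose and 1 fell in Atg7-deleted stroma and 2 rose and 1 fell in control stroma. Of all tested genes 13.1% rose and 11.2% fell in Atg7-deleted stroma, and 15.8% rose and 14.0% fell in control stroma. In lists of 7 markers these small counts are not far from those shares. Of the mesothelium markers 1 was tested, Wt1, which stood at -0.60 ± 0.23 in Atg7-deleted stroma (edgeR, adjusted p = 0.0842) and fell by 0.92 ± 0.23 in control stroma (adjusted p = 0.0172).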
